A study of Homo sapiens with 4 samples.

Results

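The small nuclear RNA (snRNA) genes were examined in a map of the RNA bound by ADAR in K562 cells. ADAR is an RNA editing enzyme that turns adenosine into inosine within RNA duplexes, and K562 is an established line from a human chronic myeloid leukaemia. Members were all genes with the RefSeq biotype snRNA in GRCh38.p14 except RN7SK, 155 genes, and a cluster or peak was counted in a gene when its midpoint lay in the gene span. Of these, 36 genes held a cluster in at least 1 of the deposited lists. They held 64 of the 534161 clusters of replicate 1, 30 of the 155848 clusters of replicate 2 and 0 of the 1717 peaks of the list that combines the replicates. The libraries were enhanced crosslinking and immunoprecipitation (eCLIP) libraries, in which protein-bound RNA is fixed by ultraviolet light (254 nm, 400 mJ/cm2), precipitated and sequenced beside an input. An ADAR1 antibody and untreated K562 cells gave 2 immunoprecipitated (IP) libraries, beside 2 input (IN) libraries from the same line without antibody, numbered 1 and 2 in each group. The gel cut reached 75 kDa above the protein. The labels do not tie the replicates to separate cultures, so their spread may be technical.

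Spliceosomal snRNAs are short, abundant, structured noncoding RNAs that pair with splice sites and with each other. U1, U2, U4, U5 and U6 serve the major spliceosome, while U11, U12, U4atac, U6atac and U5 serve the minor spliceosome, which removes a rare class of introns. U7 is not a splicing RNA and guides the 3′ end processing of replication-dependent histone transcripts. The same biotype also holds the snaR RNAs, small polymerase III transcripts that bind the double-stranded RNA binding protein NF90.

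The log2 folds and −log10 p-values are the authors' own values of IP over input for each cluster. Enriched here means a log2 fold and a −log10 p that both reach 3. Every cluster with a log2 fold below 0 carried a −log10 p of 0, so those p-values say nothing about lower IP. Each fold could be traced to a ratio of whole read numbers in lowest terms, scaled by depth. Reads of such a ratio are lower bounds, except where the p-value also fixed the multiple. Intervals below are exact 95% Clopper-Pearson intervals from these reads and cover counting error only, and those of unresolved ratios are the widest the ratio allows. Neighbouring clusters of a gene can share reads and are not independent. The ratio of IP to input depth was 3.33 for replicate 1 but 0.553 for replicate 2. All clusters of replicate 1 had a median log2 fold of 0.07, and those of replicate 2 had 1.85.

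All clusters of the minor spliceosome snRNAs had fewer IP than input reads, relative to library depth, in both replicates. So had 12 of 14 U5 clusters in replicate 1 and 9 of 9 in replicate 2. A few U1 variant, U2, U7 and snaR genes were enriched in 1 replicate each. Over all snRNA clusters the median log2 fold was −0.24 in replicate 1 and −1.48 in replicate 2. In replicate 1, 35 of 64 clusters (54.7%) lay below 0, against 47% of all clusters. In replicate 2, 21 of 30 (70.0%) lay below 0, against 9.68% of all clusters. The cluster medians are weighted towards genes cut into many clusters, and the median over gene medians was 0.34 in replicate 1 and −0.44 in replicate 2.

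**Figure D1:**
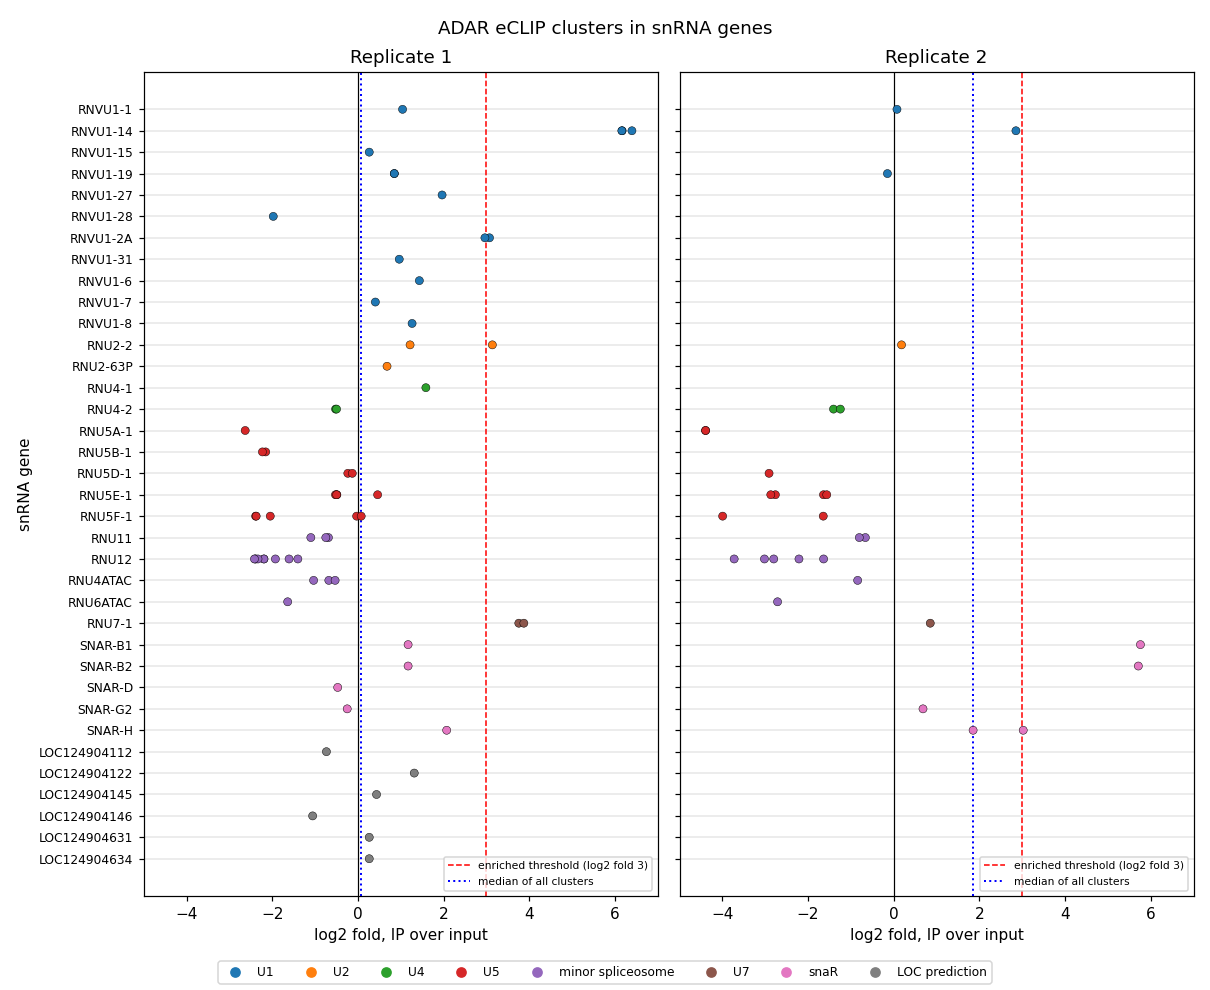
Each point is a cluster, with its log2 fold of IP over input on the x axis and its snRNA gene on the y axis, coloured by class, for replicate 1 (left) and replicate 2 (right). Clusters of U5 and of the 4 minor spliceosome genes lie mostly left of 0 in both panels, and RNVU1-14 reaches 6.40 in replicate 1 only.

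Enriched clusters were found in different genes in the 2 replicates. In replicate 1, 7 of 64 clusters in 4 genes were enriched (10.9%, against 1.39% of all clusters). They were 3 clusters of RNVU1-14, 2 of RNU7-1, 1 of RNVU1-2A and 1 of RNU2-2. In replicate 2, 2 of 30 clusters were enriched (6.67%, against 12.8% of all clusters), 1 each in SNAR-B1 and SNAR-B2. No snRNA gene held an enriched cluster in both replicates, and none held a peak of the combined list, with 18 genes covered in both. Of the 9580 protein-coding genes with clusters in both replicates, 16.5% held an enriched cluster in both and 5.24% a combined peak. Those genes were not matched to snRNA genes for length or number of clusters, so the 0 is not read as particular to snRNA genes. A gene has at most 2 paired ratios, over which an exact two-sided sign-flip test cannot go below p = 0.5, and no test was run.

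All 4 snRNA genes specific to the minor spliceosome were covered in both replicates. All 16 of their clusters in replicate 1 and all 9 in replicate 2 had log2 folds below 0, and the interval lay wholly below 0 for 14 and 9 of them. Intervals narrow as reads rise and were computed for snRNA clusters only. No share over all clusters therefore stands beside these interval counts. RNU12, the U12 snRNA that pairs with the branch site of minor introns, lies on chromosome 22 at positions 42615244 to 42615393 and held 9 clusters in replicate 1 and 5 in replicate 2. Its folds ran from −2.41 to −1.40 in replicate 1 and from −3.72 to −1.64 in replicate 2. These were among the best covered snRNA clusters. The most covered had at least 2028 input reads in replicate 1 and at least 6536 in replicate 2.

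RNU11, the U11 snRNA that recognises the 5′ splice site of minor introns (chromosome 1, 28648600 to 28648734), had folds between −1.10 and −0.69 in replicate 1. In replicate 2 its folds were −0.80 and −0.66. Its gene medians, −0.75 and −0.73, differed less than those of any other snRNA gene with clusters in both replicates. RNU4ATAC (chromosome 2, 121530880 to 121531009), the U4 counterpart of the minor spliceosome, had 3 clusters between −1.03 and −0.53 in replicate 1 and 1 at −0.84 in replicate 2. RNU6ATAC (chromosome 9, 134164439 to 134164564), the catalytic counterpart of U6, had 1 cluster in each replicate, at −1.64 and −2.71. RNU11 lies in the span of the noncoding gene TAF12-DT, RNU6ATAC in that of LOC124902297 and RNU4ATAC in that of CLASP1. TAF12-DT and LOC124902297 have the strand of the clusters, so reads of either transcript cannot be told apart. CLASP1 is on the minus strand, whereas the RNU4ATAC clusters are on the plus strand. RNU4ATAC also lies in the span of the noncoding gene CLASP1-AS1, for which no strand was given, so reads of that transcript cannot be set apart.

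U5 sits at the centre of both spliceosomes, where it holds the exons together, and its 5 genes were all covered. RNU5A-1 (chromosome 15, 65296051 to 65296167) had the lowest folds of all snRNA genes, with 1 cluster at −2.63 in replicate 1 and 2 clusters at −4.39 in replicate 2. In replicate 2 it had at least 43 IP reads against at least 1632 input reads, the same reads in both clusters. Only 0.0186% of all replicate 2 clusters had a lower fold. RNU5B-1 (chromosome 15, 65304677 to 65304793) had −2.15 and −2.23 in replicate 1 and no cluster in replicate 2.

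The variant U5 genes were also below or near 0. RNU5F-1 (chromosome 1, 44721785 to 44721902) ranged from −2.39 to 0.08 over 5 clusters in replicate 1 and had −3.99 and −1.64 in replicate 2. It lies in the noncoding gene LOC105378690 on the same strand. RNU5D-1 (chromosome 1, 44731069 to 44731170) had −0.23 and −0.13 in replicate 1 and −2.91 in replicate 2. RNU5E-1 (chromosome 1, 11908152 to 11908272) had 3 clusters between −0.52 and −0.49 in replicate 1, and the one nearest its start stood at 0.46 with a −log10 p of 3.13. In replicate 2 all 4 RNU5E-1 clusters lay between −2.87 and −1.56. Over the class, 12 of 14 clusters in replicate 1 and 9 of 9 in replicate 2 were below 0. The interval was wholly below 0 for 9 and 9 of them, again without a share over all clusters. In replicate 1 the U5 interval included 0 for 4 clusters. It was wholly above 0 for 1, the RNU5E-1 cluster at 0.46 (interval 0.19 to 0.74).

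U4, which keeps U6 inactive until the spliceosome is activated, was covered at both of its genes on chromosome 12. RNU4-2 (120291759 to 120291903) had 2 clusters at −0.52 and −0.50 in replicate 1, with intervals that included 0, and −1.40 and −1.25 in replicate 2. RNU4-1 (120293093 to 120293237) had 1 cluster at 1.59 in replicate 1, with 30 IP reads and 3 input reads, and none in replicate 2. Both genes lie in the span of SIRT4, whose RefSeq strand is plus, and their clusters are on the minus strand. The clusters covered the same stretch of the copies, up to base 59 of RNU4-2 and bases 3 to 61 of RNU4-1 in replicate 1. How reads with several matches were treated is not stated, so values of single copies are uncertain where copies are alike.

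Lower folds came with more input reads in the whole data set, and most U5 and minor spliceosome clusters were deeply covered. With at least 20 input reads in lowest terms, all clusters had median log2 folds of −0.77 in replicate 1 and −0.76 in replicate 2. The snRNA medians at that minimum were −1.25 over 32 clusters of 11 genes in replicate 1 and −2.21 over 21 clusters of 10 genes in replicate 2. Below 0 at that depth were 29 of 32 and 20 of 21 snRNA clusters, against 74% and 68.5% of all clusters. None of these snRNA clusters was enriched, against 0.792% and 1.6% of all. The minimum, chosen after seeing the data, itself took out every enriched snRNA cluster, as each had at most 12 input reads in lowest terms. Nothing is therefore read from that count, and a minimum on input reads also favours lower folds. At a minimum of 100 input reads the snRNA medians were −1.93 and −2.74 and the medians of all clusters −1.20 and −1.58. All 23 and 18 snRNA clusters at that depth were below 0, against 79.3% and 81.1% of all, and 1.23% and 1.43% of all were enriched. Values below 0 at high input were thus shared by most deeply covered clusters, and nothing particular to snRNA genes is read from them.

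**Figure D2:**
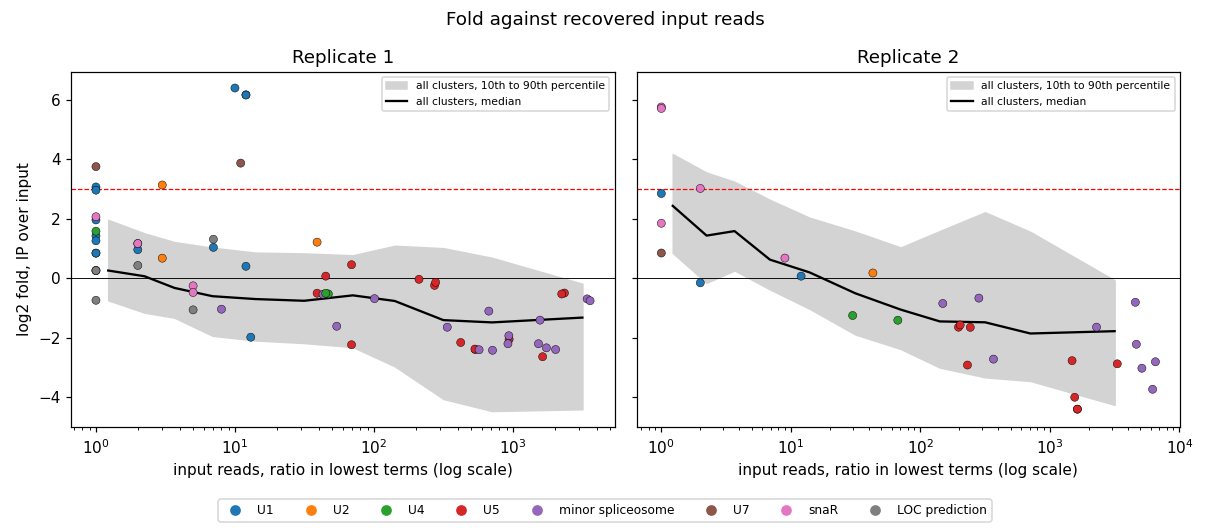
Log2 fold of IP over input (y axis) against the input reads of the ratio in lowest terms (x axis, log scale) for replicate 1 (left) and replicate 2 (right). Points are snRNA clusters coloured by class, the black line and grey band are the median and the 10th to 90th percentile of all clusters, and the dashed line marks log2 fold 3. At 20 or more input reads, 29 of 32 snRNA clusters (left) and 20 of 21 (right) lie below 0. RNVU1-14, RNVU1-2A, RNU2-2, RNU7-1 and the SNAR-B genes are among those with points above the band in 1 replicate.

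The fold varied along genes with several clusters, and the order differed between genes. Positions here are counted from the first base of the gene in the direction of the reads. In RNU12 the first cluster, bases 1 to 56, had −1.40 in replicate 1 and the last, bases 116 to 151, had −2.41. In replicate 2 the first and last clusters had −1.64 and −3.72. RNU5F-1 went from 0.08 at its start to −2.39 at bases 59 to 61 in replicate 1, and from −1.64 to −3.99 in replicate 2. RNU5E-1 went from 0.46 to −0.50 and from −1.64 to −2.87.

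Of the 13 genes with several clusters in replicate 1, the first cluster had the higher fold in 8, the lower in 4 and an equal fold in 1. In replicate 2 it was higher in 5 of 7 genes, lower in 1 and equal in 1. RNU2-2 ran the other way in replicate 1, from 1.22 to 3.14, and SNAR-H in replicate 2, from 1.85 to 3.02. RNU4ATAC went from −0.68 to −0.53, and RNU7-1 and RNVU1-2A differed by less. Taking neighbouring clusters with a gap under 10 bases, the one nearer the 5′ end was higher in 20 of 25 snRNA pairs in replicate 1 and 8 of 11 in replicate 2. The share over all neighbouring clusters was 41.8% and 33.5%. Where both had at least 20 input reads it was 49.6% and 53.3%. These pairs come from few genes and share reads.

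Several snRNA genes were covered over a limited stretch that was alike in both replicates. In RNU11 the clusters spanned bases 7 to 70 in replicate 1 and 5 to 65 in replicate 2 of a gene of 135 bases. RNU5F-1 was covered to base 61 of 118 in both. RNU12, in contrast, was covered over 150 bases in replicate 1 and 143 in replicate 2, 142 of them shared. The stretches were less alike in RNU4ATAC (97 and 59 bases, 34 shared), RNVU1-19 (111 and 37, 37 shared) and SNAR-H (46 and 99, 37 shared). Over all snRNA genes, 42 of 64 replicate 1 clusters and 29 of 30 replicate 2 clusters overlapped a cluster of the other replicate on the same strand. The same share over all clusters was not computed, so these counts are not read as particular to snRNA genes. No snRNA gene had clusters on both strands.

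**Figure D3:**
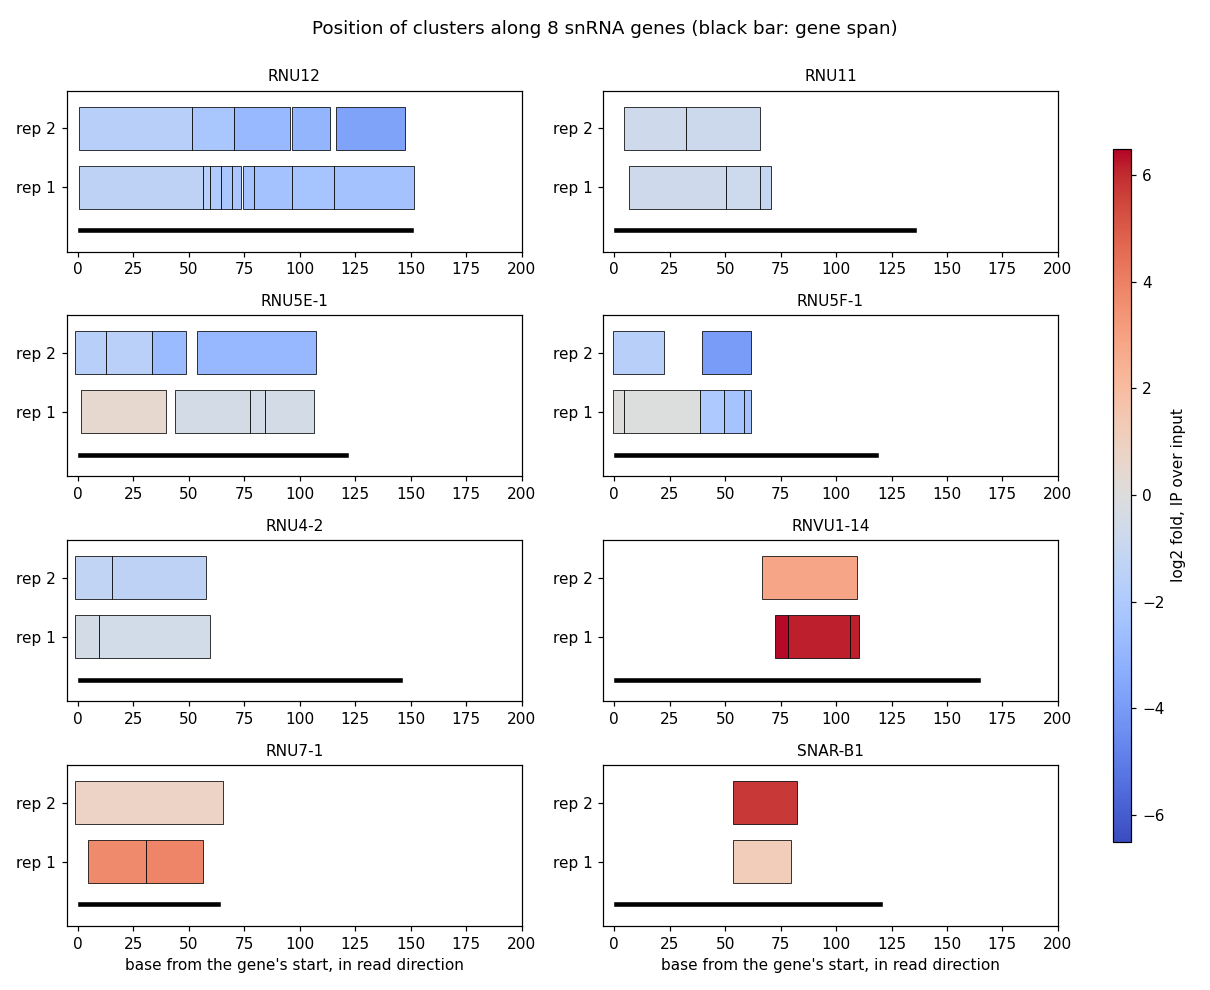
Clusters of replicates 1 and 2 along 8 snRNA genes, as boxes coloured by log2 fold of IP over input, with the base from the gene's start in read direction on the x axis and the gene span as a black bar. RNU12 is covered throughout with lower folds towards its 3′ end, while RNVU1-14 is covered between bases 67 and 110 only.

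U1, which pairs with the 5′ splice site, was represented by variant genes only. The 4 canonical genes RNU1-1, RNU1-2, RNU1-3 and RNU1-4 held no cluster, and 11 of the 21 U1 genes, all with RNVU1 symbols, did. Copies of U1 are nearly identical and the sources do not state how reads with several matches were treated, so values of single copies are uncertain. Of the 11, 8 had clusters in replicate 1 only and 3 in both replicates.

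RNVU1-14 (chromosome 1, 145281116 to 145281279, plus strand) had the highest fold of any snRNA gene. Its 3 adjoining clusters in replicate 1 had log2 folds of 6.40, 6.17 and 6.16, each with a −log10 p at the authors' limit of 400. At the strongest, at least 2807 IP reads stood against at least 10 input reads, which gives an interval of 5.52 to 7.46 at its widest, and 86 of the 534161 replicate 1 clusters had a higher fold. In replicate 2 it had 1 cluster at 2.85 with a −log10 p of 2.26, from 8 IP and 2 input reads (interval 0.53 to 6.13). The intervals of the 2 replicates overlap at these reads. The replicate 2 value missed both thresholds, and 73.9% of replicate 2 clusters were lower.

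The covered stretch of RNVU1-14 was nearly the same, bases 73 to 110 in replicate 1 and 67 to 109 in replicate 2, with 37 bases shared. No cluster lay on the same strand within 1000 bases on either side, and no other annotated gene span covered it. RNVU1-2A (chromosome 1, 144551779 to 144551943) was covered at a similar place, bases 69 to 110, in replicate 1 alone. Its clusters had log2 folds of 3.07 and 2.97 from 56 and 52 IP reads against 2 input reads each, so that 1 passed and 1 just missed the fold threshold.

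The other U1 variants were lower. RNVU1-27, RNVU1-6 and RNVU1-8 had 1.97, 1.44 and 1.27 in replicate 1 from 13, 9 and 8 IP reads against 1 input read each. RNVU1-1 had 1.04 in replicate 1 and 0.08 in replicate 2. Its clusters lie in the span of LOC124904396, for which no strand was given, so reads of that transcript cannot be set apart. RNVU1-19 had 0.85 at both clusters in replicate 1 and −0.15 in replicate 2. RNVU1-31, RNVU1-7 and RNVU1-15 had 0.97, 0.41 and 0.27 in replicate 1. RNVU1-28 was the exception at −1.98 from at least 11 IP and 13 input reads, the one U1 cluster with an interval below 0.

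U2, which pairs with the branch site of major introns, had clusters at 2 of its 3 genes. RNU2-2 (chromosome 11, 62841619 to 62841809) had clusters at 3.14 and 1.22 in replicate 1, with −log10 p of 6.56 and 6.35. They came from 88 IP against 3 input reads and 302 against 39. In replicate 2 its 1 cluster stood at 0.18 from 27 IP and 43 input reads. RNU2-2 lies in the span of WDR74 and its clusters share the RefSeq strand of that gene, so transcripts of both cannot be told apart here. Within 1000 bases on either side, the same strand held 6 clusters of 1.22 to 3.14 in replicate 1 and 2 of 4.47 and 4.66 in replicate 2. RNU2-63P had 1 cluster at 0.68 in replicate 1, and RNU2-1 held none.

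RNU7-1, the U7 gene (chromosome 12, 6943816 to 6943878), was enriched along most of its length in replicate 1. Its 2 clusters had log2 folds of 3.76 and 3.88, with −log10 p up to 30.7, from 495 and 537 IP reads against 11 input reads each (intervals 2.91 to 4.77 and 3.02 to 4.89). In replicate 2 a single cluster over the whole gene stood at 0.85 from 5 IP and 5 input reads (interval −1.27 to 2.97). That upper bound overlaps the first replicate 1 interval only narrowly and does not reach the second. RNU7-1 lies inside C12orf57 on the same strand, so the U7 RNA and that transcript cannot be told apart. A further cluster at 3.69 followed at positions 6943872 to 6943886, its midpoint just past the gene end, and the other one on that strand within 1000 bases stood at 1.20.

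Of 28 snaR genes, 5 held clusters. SNAR-B1 and SNAR-B2 (chromosome 19, 50133745 to 50133864 and 50139118 to 50139237) had log2 folds of 5.76 and 5.71 in replicate 2, with −log10 p of 12.1 and 11.7. These came from 30 and 29 IP reads against 1 input read each (intervals 3.17 to 11.1 and 3.12 to 11.1). In replicate 1 both stood at 1.17 from 15 IP and 2 input reads (interval −0.93 to 4.34). The intervals of the replicates overlap at both genes. SNAR-B2 lies in the span of the noncoding gene LOC105372436 on the strand of its clusters, so reads of either transcript cannot be told apart. No other annotated gene span covered the SNAR-B1 clusters.

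The snaR copies are also near-identical, and the 2 genes were covered at different places, bases 54 to 82 of SNAR-B1 and 5 to 52 of SNAR-B2 in replicate 2. SNAR-H (chromosome 2, 77954907 to 77955026) had 2.07 in replicate 1 and 3.02 and 1.85 in replicate 2. The higher of these passed the fold threshold and, with a −log10 p of 2.63, not the p threshold. SNAR-G2 had −0.25 in replicate 1 and 0.68 in replicate 2, and SNAR-D had −0.47 in replicate 1 alone. SNAR-H lies in the noncoding genes LOC101927967 and LOC105374817 and SNAR-D in LOC105372436, each on the strand of the clusters. Their reads cannot be told apart from those transcripts either. All 4 snaR genes with clusters in both replicates had a higher gene median in replicate 2, where the median of all clusters was also higher, by 1.78. SNAR-B1 and SNAR-B2 differed by more than that, at 4.59 and 4.54, and SNAR-H and SNAR-G2 by less, at 0.37 and 0.93.

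Among the 18 snRNA genes with clusters in both replicates, 9 had gene medians below 0 in both, namely all 4 minor spliceosome genes, 4 U5 genes and RNU4-2. There were 7 above 0 in both, and RNVU1-19 and SNAR-G2 changed side. The same counts over all genes were not computed, so these are not read as particular to snRNA genes. In replicate 2 only 9.68% of all clusters lay below 0, and their median was 1.85. Of the 7 genes, RNU2-2, RNVU1-1 and RNU7-1 stood below that median in replicate 2, at 0.18, 0.08 and 0.85. The rest of the 7 had gene medians above it. The gene median was lower in replicate 2 for 13 genes and higher for 5. Over all clusters the median moved the other way, being higher in replicate 2. For the medians of these 18 genes Pearson's r was 0.66 and Spearman's rho 0.82, a description over genes that share libraries and, within families, sequence.

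**Figure D4:**
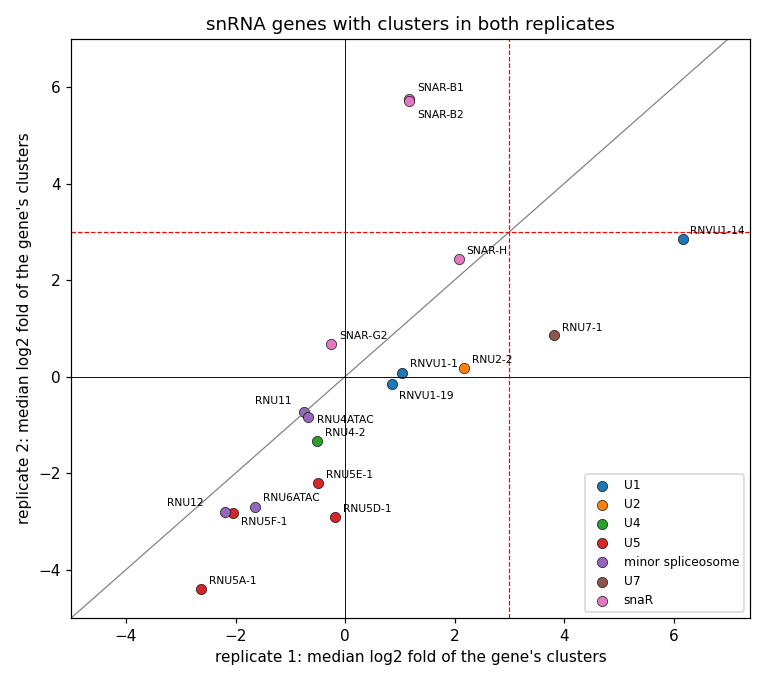
Median log2 fold of IP over input of each snRNA gene in replicate 1 (x axis) and replicate 2 (y axis) for the 18 genes with clusters in both, coloured by class, with the diagonal in grey and log2 fold 3 dashed. The 9 genes at the lower left are below 0 in both replicates, and no gene reaches log2 fold 3 in both.

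Most snRNA genes held no cluster. The 119 without one included all 5 U6 genes, 10 U1 genes, 23 snaR genes and 80 of the 86 genes known only by LOC numbers. Of the LOC genes, 7 were taken to lie on scaffolds, from their order in the annotation, and were not matched. The 6 LOC genes with a cluster had 1 each by its midpoint, in replicate 1 only, between −1.06 and 1.32, with none enriched. LOC124904122 was the highest at 1.32, within the span of TEX14, and LOC124904146, on chromosome 17, the lowest at −1.06. A replicate 2 cluster at 0.22 also overlapped LOC124904122, but its midpoint lay outside the gene. A gene without a cluster is not shown to lack reads, since the lists hold called clusters only. For genes with like copies, the unstated treatment of reads with several matches is a further limit. The share of all genes without a cluster was not counted, so the 119 are not read as particular to snRNA genes.

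Of 84 protein genes for snRNP assembly, snRNA transcription and processing, 2 held peaks of the combined list. Rows were counted on the gene's strand, except for 14 genes without a given strand, where both strands counted. ELL2, PRPF3 and TGS1 are among these, so their counts may include rows of the other strand. The same rule was used for all protein-coding genes. ELL2, a transcription elongation factor, held 5 peaks up to log2 5.57, and PPIH, a cyclophilin of the U4/U6 particle, held 2 up to 4.82. Replicate 1 had 21 enriched clusters among the 2641 of these genes (0.795%, against 1.39% of all clusters). Replicate 2 had 103 among 837 (12.3%, against 12.8%). Of the 76 with clusters in both replicates, 12 had an enriched cluster in both (15.8%), against 16.5% of the 9580 protein-coding genes with clusters in both. A combined peak was held by 2 of the 76 (2.63%), against 5.24% of those genes. ELL2 had the most enriched clusters in replicate 1, with 5. In replicate 2 ELL2 and SNRPA, a U1 protein, had 11 each, and PPIH, PRPF3 and INTS11 had 6 each. In replicate 1 SNRNP40, a U5 protein, had 3, and TGS1, which makes the trimethylguanosine cap of snRNAs, and SNUPN, the import adaptor of snRNPs, had 2 each. No test against the snRNA genes was made.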

How the data were processed

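The 3 deposited lists hold, per row, a −log10 p-value and a log2 fold of IP over input, both computed by the authors. The −log10 p is limited to 400. The submitters' processing notes name cutadapt 1.9, STAR 2.4.0i and several genome builds. Per the labels, whose names of the files mark these steps, molecular identifiers were handled, duplicates removed and blacklisted regions taken out. The caller, the treatment of reads with several matches and how the replicates were combined are not stated. Positions up to 83224967 on chromosome 17, which is shorter in hg19, show that the build is GRCh38. Gene spans came from RefSeq GRCh38.p14, whose table used here gives no strand for snRNA genes. Coordinates are counted from 1.

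Members and lists were chosen with earlier results of these data known. Named were genes with an enriched cluster or with clusters in both replicates, and every snRNA class. Of the protein list, genes with a combined peak and the leading genes of each replicate were named. Comparisons are counts and medians of the authors' values, set beside the same over all clusters. The minimums of 20 and 100 input reads, the medians over genes, the flanks, intervals and comparisons along a gene were chosen after seeing the data. No test was run across samples, since 2 paired ratios allow no p below 0.5 in an exact sign-flip test.

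To recover read ratios, the fold seen most often was set to 3 reads of IP for 1 of input. With denominators up to 10000 and a log2 tolerance of 1e-11 this gave a ratio for 99.998% of replicate 1 and 99.98% of replicate 2 clusters, against 2.38% and 0.975% on a shifted scale. Of 864 and 687 clusters checked, 99.5% and 100% had a multiple whose p matched the authors' within 0.02 (exact binomial or corrected chi-square). With 2 or 4 reads over 1 in place of 3, 13.0% to 19.1% matched. The recovery was tested on simulated data. Library totals are not stated. Python 3.11.15, pandas 2.3.3 and scipy 1.17.1 were used.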

Additional observations from a re-analysis of the deposited data

How the results depend on the processing

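Alternatives for the gene span, thresholds, input minimum of 5, named genes and single replicates were planned, while the minimum of 20 input reads and the median over genes were chosen after seeing the data. Of the alternatives, 9 could only return the count of 0 they started from and show nothing. The 0 combined peaks could have risen with any overlap of 1 base, and the 0 genes enriched in both also at log2 fold 2, and they did not. Without one replicate, the other alone gave 2 to 7 enriched clusters in place of combined peaks, and 2 to 4 genes in place of genes enriched in both. The 7 enriched clusters of replicate 1 became 3 at log2 fold 4, all in RNVU1-14. The median log2 fold of replicate 1, −0.24, was −1.25 with at least 20 input reads and turned to 0.34 as a median over genes, where each gene counts once. That of replicate 2, −1.48, was −0.44 over genes. Of the 31 alternatives that could change a result, 23 kept their result within 1.5 times or within the spread between replicates. Rows on the gene's strand only were not run for snRNA genes, because no strand was given for them. No paired analysis was possible because the results come from no test, and each ratio already compares the IP and input library of one replicate. Reads limit the replicate 2 values of RNVU1-14 and RNU7-1, at 8 and 5 IP reads.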
